A study of Arabidopsis thaliana with 6 samples.

Results

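Auxin response and synthesis genes were followed through 4 transcripts of Arabidopsis thaliana leaves: IAA29, GH3.3, GH3.1 and YUC2. The members were the probe sets whose single gene in the platform's gene table is one of these 4, which gave 4 probe sets, 1 per gene, of 22746 tested. Leaf RNA of 3 sto2 null mutant samples and 3 wild-type (Col-0) samples was measured on 6 single-colour Affymetrix arrays, and the design text calls each set of 3 biological replicates. Both groups were grown in soil for 3 weeks, with 16 h of light at 22 °C and 8 h of dark at 18 °C and no further treatment, and expanding rosette leaves 3 to 6 were harvested. Per its design text, the study looked for genes that act downstream of STO2. Neither the mutant allele nor a locus for STO2 is stated in the labels, so the mutated gene was not analysed here as a check of the labels, and whether 1 sample pools several plants is not stated either.

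Auxin, mainly indole-3-acetic acid, is made in young leaves from tryptophan, and flavin monooxygenases of the YUCCA family catalyse the last step. The hormone joins TIR1/AFB F-box proteins to Aux/IAA repressors, which are then degraded, and auxin response factors become free to activate their targets. Early targets include the genes of the Aux/IAA repressors themselves, of GH3 enzymes, which couple auxin to amino acids and so lower its active pool, and of small SAUR proteins. YUC2 thus stands on the supply side, while IAA29, GH3.3 and GH3.1 belong to classic auxin-induced families. IAA29 is also known as a target of phytochrome-interacting factors in shade and warmth.

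The arrays were alike in overall level, with medians of 37.0 to 38.5 signal units, but wild type replicate 1 stood farthest from its group. Over the brighter 50% of probe sets its mean absolute distance from the other wild-type arrays was 0.210 on the log2(signal + 16) scale, where 16 units are added to damp the noise of dim readings, against 0.169 and 0.148 for wild type replicates 2 and 3. The same measure lay between 0.111 and 0.141 in sto2. Differences of IAA29, GH3.3 and YUC2 are therefore given with and without wild type replicate 1. The differences printed for other single genes include that array unless stated. Leaf identity was checked with marker genes: the 6 measured photosynthesis markers of 10 listed summed to between 23970 and 24950 units in sto2 and between 23860 and 25740 in wild type. Background was judged from 27 control probe sets for Bacillus transcripts, called the bacterial controls here, and a reading counts as above them when it exceeds the highest of them on its own array. The shoot apex markers CLV3 and UFO were at or below these controls on every array, and the root markers PYK10 and EXPA7 exceeded them on 1 array each.

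IAA29 (AT4G32280, chromosome 4), which encodes an Aux/IAA transcriptional repressor, read 99.0, 239.5 and 138.4 signal units in sto2 replicates 1, 2 and 3, against 578.0, 242.5 and 241.5 in wild type replicates 1, 2 and 3. No sto2 array reached the lowest wild-type array, but the margin was small, 239.5 against 241.5 units, and 1 wild-type array lay far above the others. The means were 159 ± 72.5 in sto2 and 354 ± 194 in wild type (SD, n = 3 each), a ratio of sto2 to wild type of 0.449. On the log2(signal + 16) scale the difference was -1.04 ± 0.41 (SE), with a 95% interval from -2.01 to -0.0721. Its p from limma, a linear model fitted over all tested probe sets, was 0.0387 before Benjamini-Hochberg adjustment and 0.326 after it, so the difference did not pass the threshold of 0.05. In leaf RNA, fewer cells of a type and less RNA per cell cannot be told apart.

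GH3.3 (AT2G23170, chromosome 2), an enzyme gene for amino acid conjugation of auxin, read 22.7, 75.6 and 36.2 units in sto2, against 288.2, 53.6 and 47.3 in wild type. The groups overlapped: sto2 replicate 2 exceeded wild type replicates 2 and 3, and replicate 1 was the only wild-type array above it. Means were 44.8 ± 27.5 in sto2 and 129.7 ± 137 in wild type (SD, n = 3 each), while the medians were 36.2 and 53.6. The log2 difference was -0.95 ± 0.63, with a 95% interval from -2.46 to 0.55 and a limma adjusted p of 0.557.

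YUC2 (AT4G13260, chromosome 4), the auxin synthesis gene of the set, varied much less. It read 45.5, 52.3 and 50.5 units in sto2, against 79.2, 56.6 and 50.6 in wild type. The sto2 arrays lay close together and overlapped the wild-type group at its lower end, and wild type replicate 1 was again the highest. The log2 difference was -0.24 ± 0.14 (95% interval -0.57 to 0.09, limma adjusted p = 0.495), with means of 49.4 ± 3.52 in sto2 and 62.1 ± 15.1 in wild type (SD, n = 3 each).

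GH3.1 (AT2G14960, chromosome 2), a second gene of the GH3 family, could not be measured in these leaves. Its readings were 3.9, 1.5 and 1.5 units in sto2 and 1.4, 8.9 and 1.2 in wild type. On 0 of the 6 arrays did it exceed the bacterial controls, so no fold is given. The fitted log2 difference of -0.10 ± 0.16 (limma adjusted p = 0.846) compares readings at background.

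**Figure D1:**
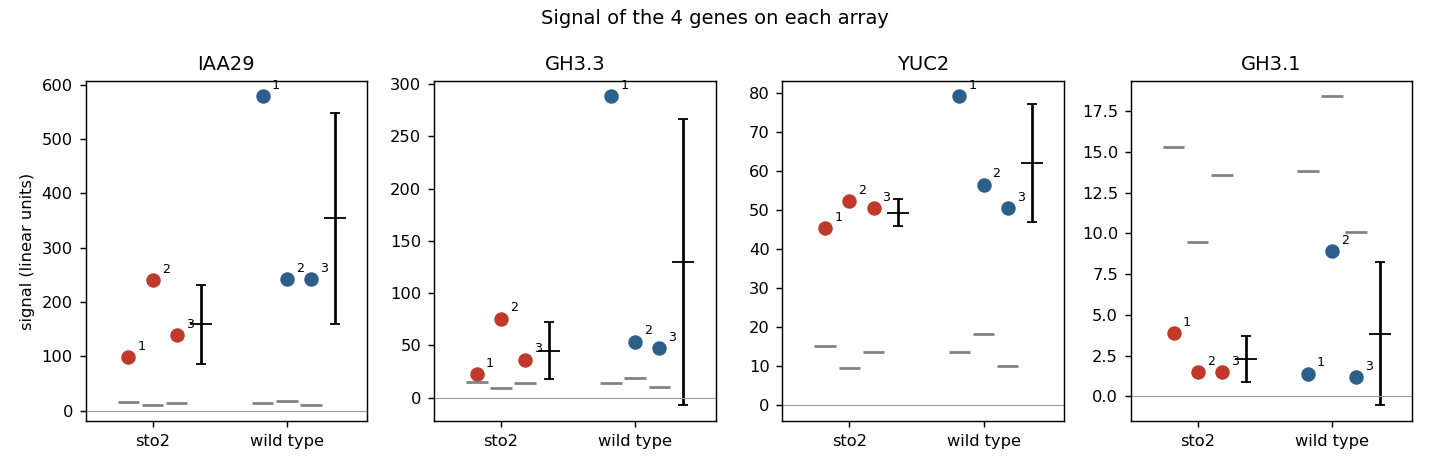
Signal of IAA29, GH3.3, YUC2 and GH3.1 in linear units for sto2 (red, left) and wild type (blue, right); points are arrays with their replicate number, black marks are means with SD (n = 3), and grey dashes are the highest bacterial control reading of each array. Wild type replicate 1 is the highest array for IAA29, GH3.3 and YUC2, and GH3.1 lies below the dashes everywhere.

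None of the 4 genes was called, against 0.127% of all tested probe sets called in either direction at an adjusted p under 0.05, which is 29 probe sets, and 0.0703% called with sto2 lower. At an unadjusted limma p under 0.05 there was 1 of 4, IAA29, where 14.1% of all tested probe sets had such a p. Groups were separate for 1 of 4 genes, again IAA29, where 10.2% of all tested probe sets were separate with sto2 lower and 19.2% in either direction. All 4 means were lower in sto2, where 52.2% of all tested probe sets had a lower mean, but the readings of GH3.1 were at background. The differences of IAA29 and GH3.3 were large in size, but so was their spread. The log2 difference of IAA29 exceeded in size those of 99.8% of tested probe sets, and its residual SD of 0.64 exceeded the residual SD of 99.8% of them. For GH3.3 the residual SD was 1.00, against a median of 0.14 over all tested probe sets. YUC2, with a residual SD of 0.20, was nearer to that median.

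Wild type replicate 1 decided much of the size of the differences of IAA29, GH3.3 and YUC2. Without it, the difference of IAA29 was -0.64 ± 0.32 (95% interval -1.43 to 0.15, limma adjusted p = 0.389). That of GH3.3 shrank to -0.22 ± 0.35, with an interval from -1.08 to 0.64. YUC2 had -0.09 ± 0.09 without it, with an interval from -0.31 to 0.13. Leaving out sto2 replicate 2, the highest sto2 array for these 3 genes, moved the values the other way, to -1.35 for IAA29, -1.29 for GH3.3 and -0.27 for YUC2. All 3 differences stayed below 0 whichever array was left out, and none passed the adjusted threshold.

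**Figure D2:**
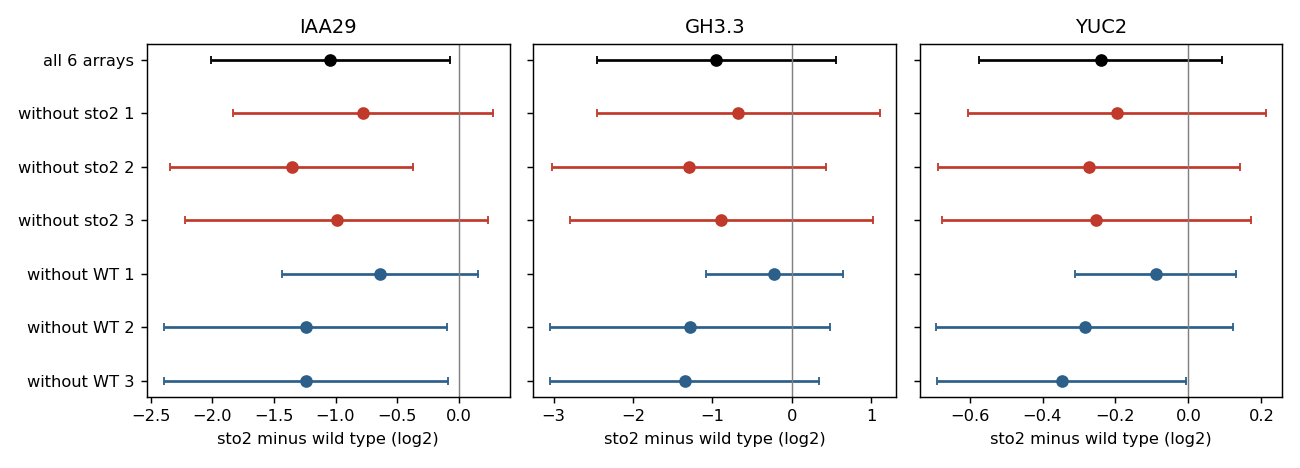
Difference between sto2 and wild type on the log2(signal + 16) scale for IAA29, GH3.3 and YUC2, with all 6 arrays (black) and with each sto2 (red) or wild-type (blue) array left out; bars are 95% intervals from limma. The 3 genes come closest to 0 without wild type replicate 1, at -0.64, -0.22 and -0.09.

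The 3 genes read above the controls varied together from array to array. Wild type replicate 1 was the highest of its group and sto2 replicate 2 the highest of its group for IAA29, GH3.3 and YUC2 alike, and sto2 replicate 1 was the lowest of all arrays for each. Wild type replicate 1 read 2.39 times the mean of the other wild-type arrays for IAA29, 5.71 times for GH3.3 and 1.48 times for YUC2. In sto2, replicate 2 read 2.02, 2.57 and 1.09 times the mean of the other sto2 arrays for the same genes.

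Over the 6 arrays, 6 pairs of the 4 genes were compared by correlation of log2(signal + 16). IAA29 and GH3.3 had a Pearson r of 0.950 (exact permutation p = 0.00694, adjusted p = 0.0194 over the pairs) and a Spearman rho of 0.829 (exact permutation p = 0.0583, adjusted p = 0.117). For IAA29 and YUC2 the values were r = 0.921 (exact permutation p = 0.00278, adjusted p = 0.0167) and rho = 0.943 (exact permutation p = 0.0167, adjusted p = 0.05). GH3.3 and YUC2 had r = 0.965 (exact permutation p = 0.00972, adjusted p = 0.0194) and the same rho and rank-based p-values as IAA29 and YUC2. Pearson's r thus passed for 3 pairs, and Spearman's rho passed for 0 pairs after adjustment. The permutations took no account of genotype, so a group difference shared by both genes of a pair enters these p-values. The genes were also chosen with earlier results of these data known.

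The size of r depended on the extreme arrays. With sto2 replicate 1 and wild type replicate 1 left out, the arrays farthest from the median of the first gene, r over the remaining 4 arrays was 0.732 for IAA29 and GH3.3. It was 0.480 for IAA29 and YUC2 and 0.358 for GH3.3 and YUC2. Leaving out the extreme arrays narrows the range, which by itself tends to lower r. These values therefore cannot show whether a relation holds over the other arrays. Leaving out wild type replicate 1 alone gave r of 0.899, 0.817 and 0.758 over 5 arrays, and Spearman's rho of 0.7, 0.9 and 0.9, for the same 3 pairs in that order. With each group's mean taken off, so that the genotype difference plays no part, r was 0.971 for IAA29 and GH3.3, 0.880 for IAA29 and YUC2, and 0.958 for GH3.3 and YUC2. The 3 pairs with GH3.1, which read at background, had r of -0.171 with IAA29, -0.271 with GH3.3 and -0.103 with YUC2 (exact permutation p of 0.606, 0.5 and 0.861, adjusted p of 0.727, 0.727 and 0.861).

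**Figure D3:**
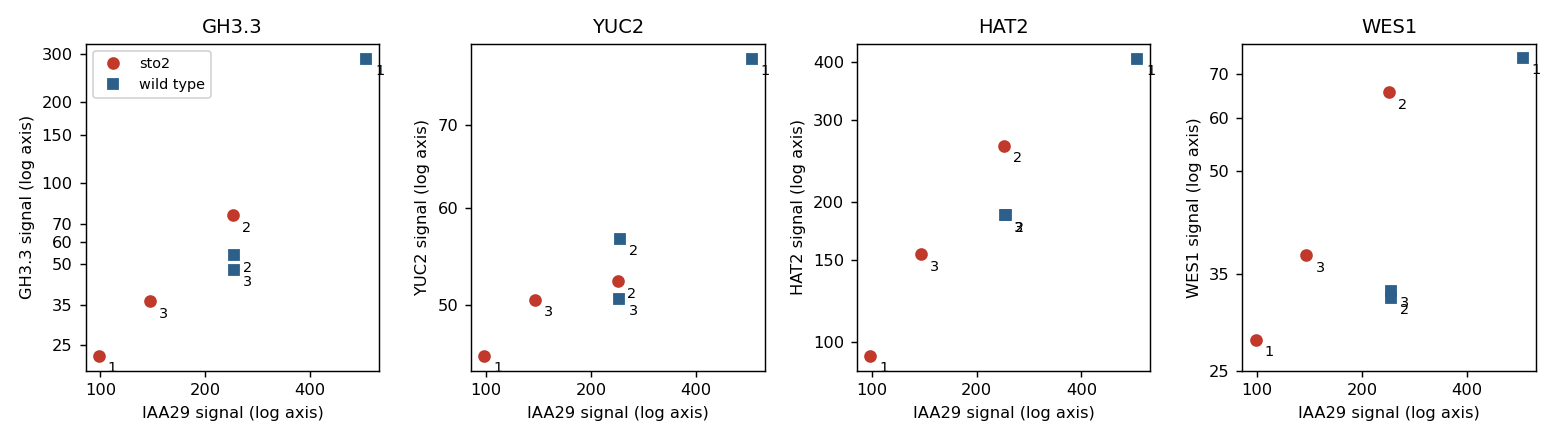
Signal of GH3.3, YUC2, HAT2 and WES1 against that of IAA29 on the 6 arrays, both axes logarithmic; circles are sto2 and squares wild type, numbered by replicate. Wild type replicate 1 is at the top right and sto2 replicate 1 at the bottom left of each panel.

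Further genes of the pathway were taken from a list of 132 symbols by role, of which 22 had a single-gene probe set, the 4 members included. Of the 22, 10 exceeded the bacterial controls on all 6 arrays, 5 on some and 7 on none. No gene of the list was called by limma in either direction, and 2 of 22 had an unadjusted p under 0.05, where all tested probe sets gave 14.1%. The list's median log2 difference was -0.13, against -0.0081 over all tested probe sets, and 19 of 22 means were lower in sto2, against 52.2% of all tested probe sets. The members and the list were chosen with earlier results of these data known. Without the 4 members, 15 of 18 means were lower and the median was -0.099. Over the 22, groups were separate for 2 genes, IAA29 with sto2 lower and UGT74D1 with sto2 higher. Of all tested probe sets, 19.2% had separate groups. Over the 10 genes above the controls on every array, a subset chosen after seeing the data, the median was -0.21, and it was -0.20 without wild type replicate 1. No listed gene of auxin transport, conjugate hydrolysis, the auxin response factors or the SAUR family was matched, and nothing is said here about their levels.

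Among synthesis genes, YUC2 alone of the 4 measured YUCCA genes exceeded the controls on all arrays. YUC4 and YUC11 exceeded them on 0 arrays, and YUC6 did on 1, wild type replicate 3, where it read 13.0 units. Their differences compare readings near background: 0.15 ± 0.11 for YUC11, -0.17 ± 0.13 for YUC6 and -0.01 ± 0.19 for YUC4.

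Of the conjugation and inactivation genes, 6 of 7 had lower means in sto2, against 52.2% of all tested probe sets. Only 4 of the 7 were above the controls throughout. UGT74D1, which encodes a glucosyltransferase that acts on auxin, was the exception in direction. It read 52.2, 51.1 and 41.1 units in sto2, against 37.0, 40.0 and 39.8 in wild type, so every sto2 array exceeded every wild-type array. Its log2 difference was 0.22 ± 0.09 with a limma p of 0.0497 before and 0.354 after adjustment. GH3.9, another GH3 gene, read 23.6, 25.2 and 21.0 units in sto2, against 30.5, 37.0 and 23.0 in wild type, and its groups overlapped (-0.22 ± 0.12, limma adjusted p = 0.469).

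WES1 (AT4G27260, also called GH3.5), whose enzyme conjugates auxin and salicylic acid, shared the array pattern of IAA29 without its group difference. Readings were 27.8, 65.6 and 37.3 units in sto2, against 73.9, 32.2 and 33.0 in wild type. Each group had 1 high array, sto2 replicate 2 and wild type replicate 1, and the log2 difference was only -0.05 ± 0.31 (limma adjusted p = 0.968). With group means taken off, its r with IAA29 was 0.999, described over the 6 arrays, and over the arrays as they stand it was 0.753. Without wild type replicate 1 the latter fell to 0.456. GH3.17 and UGT84B1, both conjugation genes, exceeded the controls on 0 arrays.

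The Aux/IAA family had 7 measured genes, and 6 of them had lower means in sto2, against 52.2% of all tested probe sets. Only 2 of the 7, IAA29 and IAA18, were above the controls on all arrays. IAA18 did not follow IAA29. IAA18 read 177.9, 199.5 and 169.1 units in sto2, against 182.7, 170.6 and 201.7 in wild type, a log2 difference of -0.02 ± 0.10. IAA30, whose protein lacks the degradation motif of most Aux/IAA proteins, read 13.6, 12.8 and 12.6 units in sto2, against 43.5, 13.6 and 18.3 in wild type. It exceeded the controls on 3 arrays, wild type replicate 1 stood far above the rest, and the groups touched at 13.6 units (-0.44 ± 0.24, limma adjusted p = 0.477). IAA31 had a difference of -0.26 ± 0.14 and exceeded the controls on 0 arrays. IAA33 and IAA34 exceeded them on 3 arrays each and IAA20 on 1, and their differences were -0.04, -0.01 and 0.18.

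HAT2 (AT5G47370), an auxin-induced homeodomain-leucine zipper gene, came closest to IAA29 within the list by Pearson's r over the 6 arrays. It read 93.3, 263.5 and 154.1 units in sto2, against 405.6, 187.0 and 187.1 in wild type. The sto2 replicate 2 reading exceeded those of wild type replicates 2 and 3, so the groups overlapped, and the log2 difference was -0.58 ± 0.41 (limma adjusted p = 0.583). As a description over the 6 arrays, its r with IAA29 was 0.953, and 0.896 without wild type replicate 1. By Spearman's rho YUC2 was closer to IAA29, at 0.943 against 0.771 for HAT2. The lateral organ boundary genes LBD16 and LBD29, known from auxin-induced root branching, had differences of -0.20 ± 0.19 and -0.11 ± 0.09, and LBD29 exceeded the controls on 0 arrays. SKP2A, an F-box gene whose protein binds auxin and the only measured gene of perception, had -0.16 ± 0.11.

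**Figure D4:**
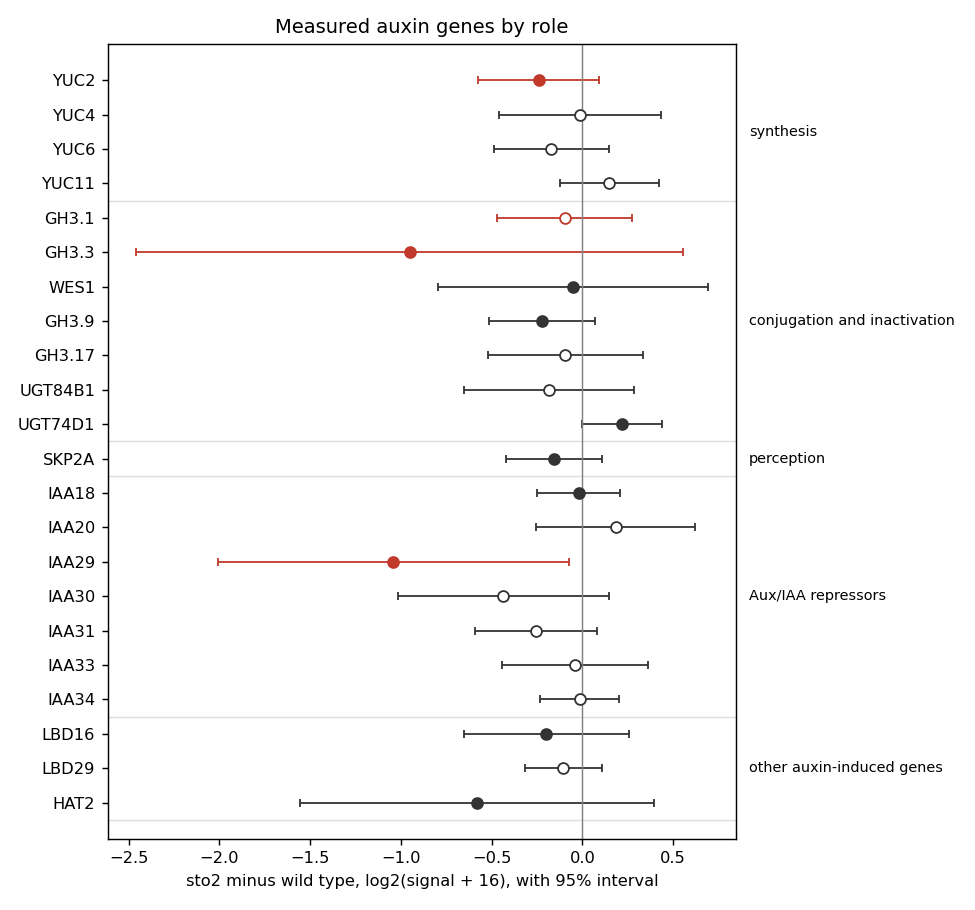
Difference between sto2 and wild type on the log2(signal + 16) scale for the 22 measured auxin genes by role, with 95% intervals from limma; red marks the 4 members, and open circles mark genes that did not exceed the bacterial controls on all 6 arrays. IAA29 and GH3.3 lie farthest to the left, at -1.04 and -0.95, and UGT74D1 is the highest at 0.22.

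**Figure D5:**
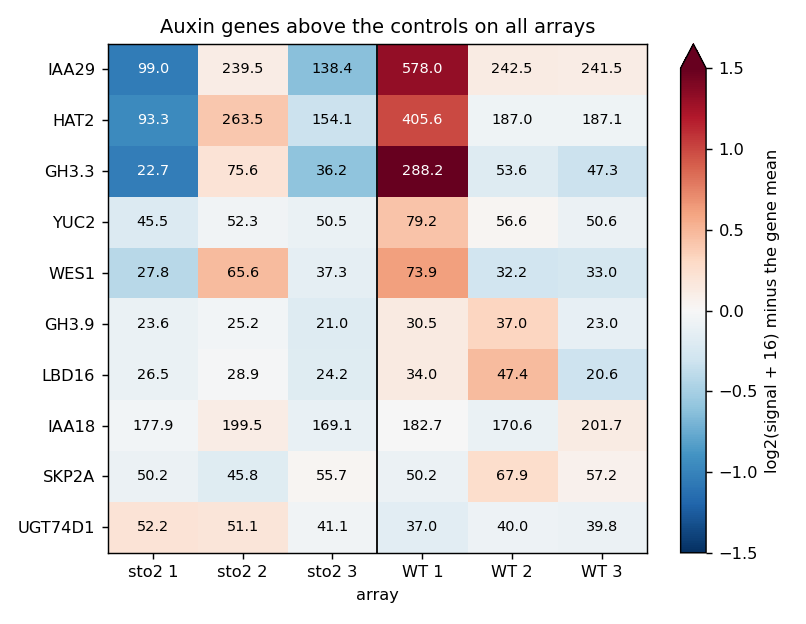
The 10 auxin genes above the bacterial controls on all 6 arrays, ordered by their correlation with IAA29; colour is log2(signal + 16) minus the gene's mean and the printed number is the signal in linear units, with the sto2 arrays left of the wild-type (WT) arrays. IAA29, HAT2, GH3.3, YUC2 and WES1 have their highest sto2 reading on replicate 2 and their highest wild-type reading on replicate 1.

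The same pair of high arrays was seen in many other genes. On these arrays sto2 replicate 2 and wild type replicate 1 were each the highest of their group for 5 of the 10 auxin genes above the controls, namely IAA29, GH3.3, YUC2, HAT2 and WES1. Over all probe sets above the controls on 6 arrays the share was 19.7%. IAA29, GH3.3 and YUC2 are members, chosen with earlier results of these data known, so the 5 of 10 is not an independent count. Among the 7 other auxin genes above the controls, only HAT2 and WES1 had this pair of high arrays. Deviations from the group means over the brighter 50% of probe sets correlated at 0.461 between sto2 replicate 2 and wild type replicate 1, the highest of the 9 pairs of a sto2 and a wild-type array. Several ratios of 3' over 5' signal of control probe sets were extreme on the same arrays, but in differing directions. The log2 ratio of 3' over 5' signal of the newer ubiquitin controls was 0.153, 0.238 and 0.148 in sto2 replicates 1, 2 and 3, and 0.444, 0.0422 and 0.132 in wild type. Ratios of the older ubiquitin and newer GAPDH controls were also the highest of each group on sto2 replicate 2 and wild type replicate 1. Those of the older GAPDH and newer actin controls were the lowest of each group on these arrays. Older GAPDH gave 0.330, 0.251 and 0.386 in sto2 replicates 1, 2 and 3, and 0.120, 0.261 and 0.448 in wild type. The ratio for the older actin controls separated the groups instead, at 1.82 to 2.32 in sto2 and 2.52 to 2.63 in wild type. The part of RNA quality in the values of the auxin genes was not tested.

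Among the cell type markers, SWEET11 moved opposite to IAA29. SWEET11, a sucrose exporter gene of the phloem and the only measured marker of 5 listed for that tissue, read 1212, 995.1 and 1112 units in sto2, against 701.5, 1087 and 1050 in wild type. It was lowest in each group where IAA29 was highest, with r = -0.934 over the 6 arrays as a description. Such an r was not particular to the phloem marker. Among the 6030 brighter single-gene probe sets compared with IAA29 below, 124 had an r of -0.9 or lower. The photosynthesis marker PRK had r = -0.91, while the other photosynthesis markers ran from -0.125 for LHCB4.1 to 0.709 for RCA. The 3 measured stomatal lineage markers of 8 listed summed to between 72.7 and 84.0 units in sto2 and between 59.4 and 89.8 in wild type, and the 2 trichome markers of 7 listed to between 64.2 and 93.3 in sto2 and between 84.1 and 101.7 in wild type. SPCH and MUTE exceeded the controls on 1 array each. The part of cell composition in the auxin values was not tested.

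Genes with the most similar pattern were sought among 6030 other single-gene probe sets in the brighter 50%. For IAA29 the highest r over the 6 arrays belonged to AT1G68670 (0.995), AT5G44250 (0.991), AT1G21830 (0.990), AT3G16670 (0.988) and AT1G32460 (0.987). AT1G21830 had the largest difference of these, with 120.8, 179.8 and 143.5 units in sto2, against 323.7, 210.8 and 194.7 in wild type (log2 difference -0.64, limma adjusted p = 0.257). AT1G68670 read 106.8, 147.4 and 119.8 units in sto2, against 210.7, 152.1 and 141.6 in wild type. The groups were separate in AT1G21830, while in AT1G68670 sto2 replicate 2 exceeded wild type replicate 3. HAT2 ranked 36 in this order, GH3.3 ranked 42 and YUC2 ranked 80, and 1.96% of the 6030 reached an r of 0.9.

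For GH3.3 the closest were AT3G57800 (0.999), AT5G47570 (0.997), AT1G78040 (0.994), AT1G54200 (0.991) and AT3G50370 (0.988). AT3G57800 read 85.0, 113.6 and 92.9 units in sto2, against 162.8, 101.8 and 100.7 in wild type. Its order of arrays was that of GH3.3, with a far narrower range. YUC2 ranked 21 in likeness to GH3.3, IAA29 ranked 39 and HAT2 ranked 50. The similar genes share the arrays, and a correlation over 6 of them describes these arrays only.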

How the data were processed

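Leaf RNA was labelled with biotin and hybridised to single-colour Affymetrix arrays by a service provider, per the labels' protocols. The deposited table held linear signal intensity values, 1 column per sample. Every array had the same 2% trimmed mean while quartiles differed, so the authors' scaling appears to be 1 factor per array; how probes were summarised is not given here by any label or header. Array medians differed little, and no further normalization was applied. No detection calls were used. Instead, each reading was set against 27 probe sets for Bacillus transcripts: above the controls means higher than all of these on that array, the largest of which lay between 9.5 and 18.4. This stand-in was chosen with the values known.

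After 64 control probe sets were left out, log2(signal + 16) of the other 22746 was fitted with limma 3.58.1 (R 4.3.3). Moderated 2-sided p-values came from eBayes and were adjusted by Benjamini-Hochberg across the 22746, with a threshold of 0.05. Such differences understate the change of dim transcripts. The procedure was tested on simulated data. Correlations used exact permutation of the array pairings in Python 3.11.15. Genes were named from the platform's gene table, and loci from RefSeq's table of TAIR10.1; no coordinates are printed, because no source here names the build behind the array.

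The 4 genes and the auxin list were chosen with earlier results of these data known. The naming rule took the 4 genes, up to 3 genes per role with the smallest p, and the 5 genes most like IAA29 and most like GH3.3. Other genes named above or below, such as WES1 and IAA18, were picked after their values were seen. Alternatives were quantile normalization, median centring, pseudocounts of 1 and 64, filters that dropped the dimmest 30% or 50% of probe sets, array weights, an eBayes prior that is robust and follows intensity, a replicate block, averaging the probe sets of 1 gene, and each array left out in turn.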

Additional observations from a re-analysis of the deposited data

How the results depend on the processing

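Over all probe sets, 29 calls became 70 with array weights, 72 with an intensity trend and robust prior, 17 and 83 with pseudocounts of 1 and 64, 147 and 227 without the dimmest 30% and 50%, and 5 to 22 with 1 array left out. IAA29, GH3.3 and YUC2 kept their direction and did not pass in any of 15 alternatives each. Their adjusted p ran from 0.179 to 0.569, from 0.396 to 0.812 and from 0.358 to 0.697. With 1 array left out the differences ran from -1.35 to -0.64 for IAA29, from -1.35 to -0.22 for GH3.3, from -0.35 to -0.09 for YUC2 and from -0.19 to 0.08 for GH3.1. GH3.1 turned to 0.0784 without wild type replicate 2, and both filters on dim probe sets dropped it. The list median was -0.29 with a pseudocount of 1 and -0.0446 with a pseudocount of 64, and ran from -0.18 to -0.11 with 1 array left out. Each gene of the list had 1 probe set, so averaging probe sets changed nothing.

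With 1 array left out, an alternative chosen after seeing the data, r ran from 0.899 to 0.974 for IAA29 and GH3.3, from 0.817 to 0.959 for IAA29 and YUC2, from 0.758 to 0.990 for GH3.3 and YUC2, from -0.649 to 0.0867 for IAA29 and GH3.1, from -0.510 to -0.0462 for GH3.3 and GH3.1, and from -0.452 to 0.465 for GH3.1 and YUC2. The first 3 pairs passed only without sto2 replicate 2 or wild type replicate 2, in tests over 5 arrays. Both sign changes came without wild type replicate 1.

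No sign was seen that the replicate numbers pair the samples: deviations from the group means correlated at -0.420, -0.271 and 0.120 between arrays numbered 1, 2 and 3. Deviations within a group sum to 0, so these correlations depend on each other and cannot show whether samples were handled in pairs. With the replicate number as a block 2 probe sets were called, and the adjusted p was 0.480 for IAA29, 0.633 for GH3.3 and 0.591 for YUC2, with the same differences.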

Other observations

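LBD16 and GH3.9 had a different high array from IAA29. LBD16 read 26.5, 28.9 and 24.2 units in sto2, against 34.0, 47.4 and 20.6 in wild type, with wild type replicate 2 the highest of the 6 arrays. GH3.9 peaked on the same array at 37.0 units, as did SKP2A at 67.9 units. IAA29 itself read 242.5 units there, next to 241.5 in wild type replicate 3.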
